A study of Mus musculus with 8 samples.

Results

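The citrate cycle, branched-chain amino acid and ketone genes described here are 36 named genes, taken from a list of symbols with no threshold on their values, out of 30153 genes in the deposited table. They fall into 14 genes of the citrate cycle, 6 of the malate-aspartate shuttle and of reactions that refill the cycle, 13 of branched-chain amino acid breakdown and 3 of ketone oxidation. Heart RNA was measured in 4 libraries of aged mice given a western diet and in 4 of aged mice whose labels name no diet, called control here. A western diet is a feed rich in fat and sugar. All 8 are labelled as C57/BL6 animals with haplotype II, and the series title describes mice that overexpress the human angiotensin II type 1 receptor, which mediates most actions of angiotensin II on heart and vessels. Both groups therefore carry the transgene, and the labels give neither its promoter nor the sex, exact age, length of feeding or collection batch. The labels do not tie each library to its own animal, and p-values cover only the spread among the 8 samples. The human transgene transcript was not analysed here.

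In the citrate cycle, acetyl groups from fatty acids, glucose, amino acids and ketone bodies are joined to oxaloacetate and oxidised inside mitochondria, which yields NADH for the respiratory chain. The malate-aspartate shuttle carries reducing power from the cytosol into mitochondria. Leucine, isoleucine and valine lose their amino group, are decarboxylated by a dedicated dehydrogenase complex and enter the cycle as acetyl-CoA or succinyl-CoA. The heart also burns the ketone body 3-hydroxybutyrate, which it turns into acetyl-CoA with 3 enzymes, all of them in the list.

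No gene of the list passed the test between western diet and control hearts. Expression was deposited as TPM (a share of all transcripts, scaled to transcript length, that keeps no read depth), and 35 of the 36 genes passed the filter of at least 1 TPM in at least 4 libraries. Of these 35, 0 rose and 0 fell at a limma adjusted p under 0.05, while 0.301% of all 10969 genes tested passed (0.228% higher and 0.0729% lower with western diet). None of the 35 had an unadjusted p under 0.05 either, against 11.7% of all genes. In none did the 4 western diet libraries lie apart from the 4 controls, against 6.6% of all genes. A missed threshold does not show that the groups were alike, so intervals are given. The 95% interval of the fold change lay within 1.5-fold in either direction for 34 of the 35 genes, and for 84.0% of all genes. The exception among the 35 was Mdh1, whose interval reached 0.59 on the log2 scale. All genes and the 35 were not matched for expression level. The estimates ran from -0.22 for Bckdhb to 0.18 for Mdh1 (log2 fold change in TPM + 1, western diet over control). In these 35 genes 26 estimates were below 0 and 9 above, with a median of -0.06, whereas 33.6% of all genes were below 0, 66.4% were above, and their median was 0.06.

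The absence of small p-values depended on the scaling and on which libraries entered, while the absence of calls did not. After median-of-ratios scaling between libraries, 11 of the 35 genes (31.4%) had an unadjusted limma p under 0.05, against 14.9% of all genes. Here 32 were below 0, against 51.5% of all genes, and their median was -0.14, against -0.01 for all genes. After quantile normalisation the count was 7 of 35, against 15.3% of all genes, with 30 below 0, against 52.9% of all genes. With a term for Y-linked transcripts the count was 7 of 35, against 8.32% of all genes. Estimates below 0 then numbered 34, against 64.2% of all genes. That contrast rests on western diet replicate 4 as the only western diet library with those transcripts. Bckdhb, Fh1 and Suclg1 were among the genes counted after either scaling and with this term. The 5 libraries with Y-linked transcripts alone were chosen as an alternative after seeing the data. They hold 1 western diet library, replicate 4, so only the effect size is given. There the median log2 fold change of the 35 genes was -0.22, against -0.07 for all genes. Without western diet replicate 1 the count was 4 (11.4%), near the 10.3% of all genes. It was 1 (2.86%) without control replicate 2 and 3 (8.57%) without mitochondrially encoded genes, both below the shares of all genes, 7.89% and 13.2%. In all of these the number past an adjusted p of 0.05 was again 0. In bulk tissue, fewer cells of a type and less RNA per cell cannot be told apart.

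**Figure D1:**
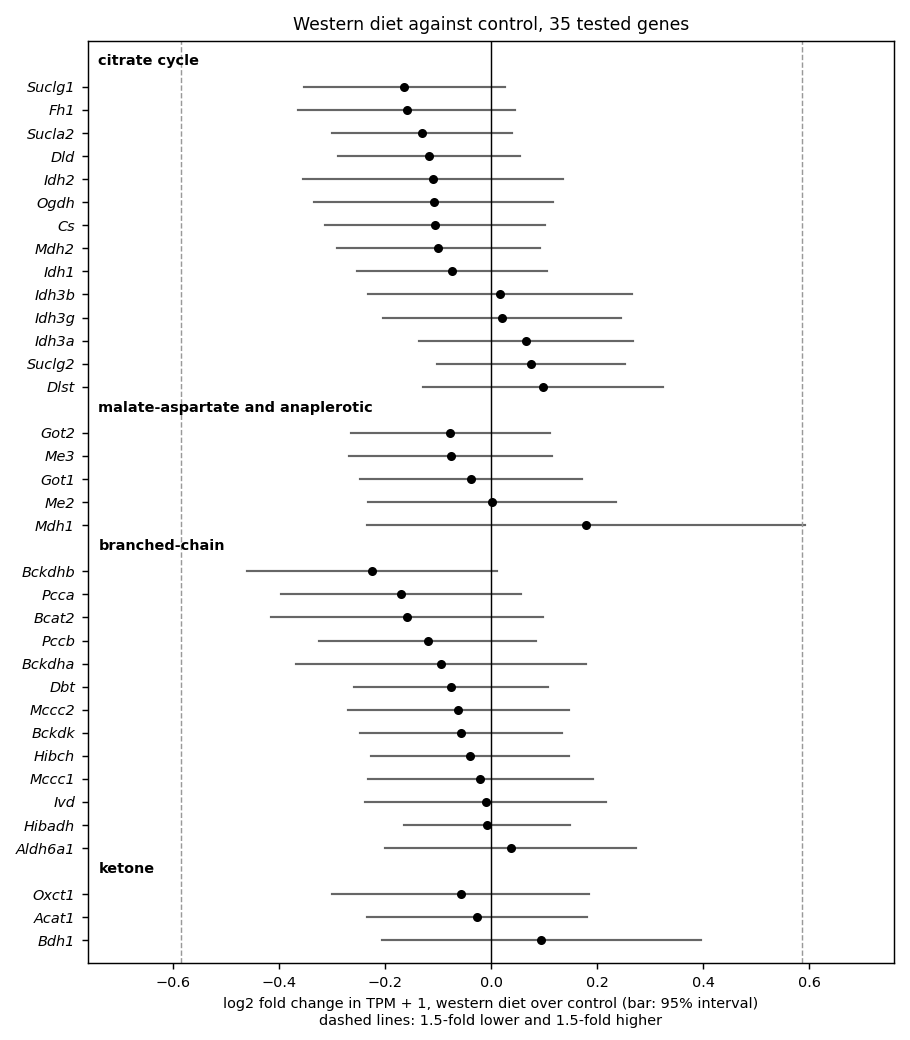
The log2 fold change of TPM + 1 (x axis, western diet over control) is drawn for each of the 35 tested genes (y axis, by branch) as a point with its 95% interval. All 35 intervals cross 0, and only that of Mdh1 passes the dashed line of a 1.5-fold rise.

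The libraries themselves differed in ways that touch these results. Eif2s3y of the Y chromosome was at 0, 0, 0.0231 and 22.3 TPM in western diet replicates 1 to 4, against 21.1 to 29.04 TPM in controls, and the sum of 4 Y-linked genes was 0.227 to 0.2704 TPM in western diet replicates 1 to 3, which are called libraries without Y-linked transcripts here. No control is such a library, so for these 3 diet and that difference cannot be told apart. Summed kidney tubule markers (4 of 4 genes, led by Kap) were at 9.02 to 14.2 TPM in western diet replicates 1 to 3 and 79.004 TPM in replicate 4, against 0 to 0.685 TPM in controls. Atrial Myl7 was at 335 TPM in western diet replicate 2 and at 184 and 1403 TPM in control replicates 1 and 3, against 1.102 to 2.87 TPM elsewhere, and summed adipocyte markers (6 genes) reached 32.9 TPM in control replicate 3, against 0.155 to 3.04 TPM elsewhere. Ventricular markers were high in every library, with the 8-gene sum at 44280.2 to 55965 TPM in western diet and 51314 to 55742 TPM in controls. The skeletal muscle marker sum (6 genes) was 0.804 to 1.92 TPM in western diet and 2.099 to 3.01 TPM in controls. Its genes did not move together. Pvalb (0 to 0.788 TPM against 1.04 to 1.13 TPM in controls) and Mylpf (0 to 0.364 TPM against 0.651 to 1.42 TPM) were lower with western diet. Tnnt3 was higher, at 0.4995 to 1.21 TPM against 0.219 to 0.493 TPM in controls. Myh1, Myh2 and Myh4 overlapped between the groups, and Myh1 was listed at 0 in all western diet libraries and in control replicate 1. Summed red cell transcripts (5 genes) were at 14256 TPM in western diet replicate 1, against 1975 to 5283 TPM elsewhere. The endothelial, fibroblast and macrophage sums overlapped between the groups. Within those lists only endothelial Cldn5 and macrophage C1qa did not. Cldn5 was at 15.7 to 18.7 TPM with western diet and 7.37 to 9.69 TPM in controls. C1qa was at 43.2 to 75.9 TPM with western diet and 35.4 to 41.7 TPM in controls.

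Western diet replicate 4 stood lowest for most of the 36 genes. Of the 35 tested, 21 had their lowest value in that library and 24 lay below all 4 controls there. Over all genes tested, 25.7% were lowest in that library and 32.7% were below all controls. The median deviation of the 35 genes from the control mean was 0.01, 0.06, -0.05 and -0.22 in western diet replicates 1 to 4 (log2 TPM + 1), where all genes had 0.12, 0.16, 0.05 and -0.07. Replicate 4 was lowest for 10 of 14 citrate cycle genes, 4 of 5 shuttle and malic enzyme genes, 5 of 13 branched-chain genes and 2 of 3 ketone genes. In the same library the ventricular marker sum was the lowest of all 8, at 44280.2 TPM. Within that list Myl2, Tnnt2 and Tnni3 were lowest there, while Mb, Ckm, Ryr2, Myh6 and Actc1 were lowest in other libraries. Mitochondrially encoded transcripts took 39.3% of TPM in replicate 4. They took 27.3% to 38.5% in the other western diet libraries and 34.6% to 36.5% in controls. The interferon-induced factor Irf7 was at 61.03 TPM in replicate 4, against 3.65 to 14.7 TPM in the other 7 libraries. The part of these differences in the low values of replicate 4 was not tested. Without replicate 4 the median log2 fold change of the citrate cycle genes was -0.04, in place of -0.10, while that of all genes was 0.11, in place of 0.06. Relative to all genes the citrate cycle median was -0.15 without replicate 4 and -0.16 with it, and again 0 of 35 genes passed.

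**Figure D2:**
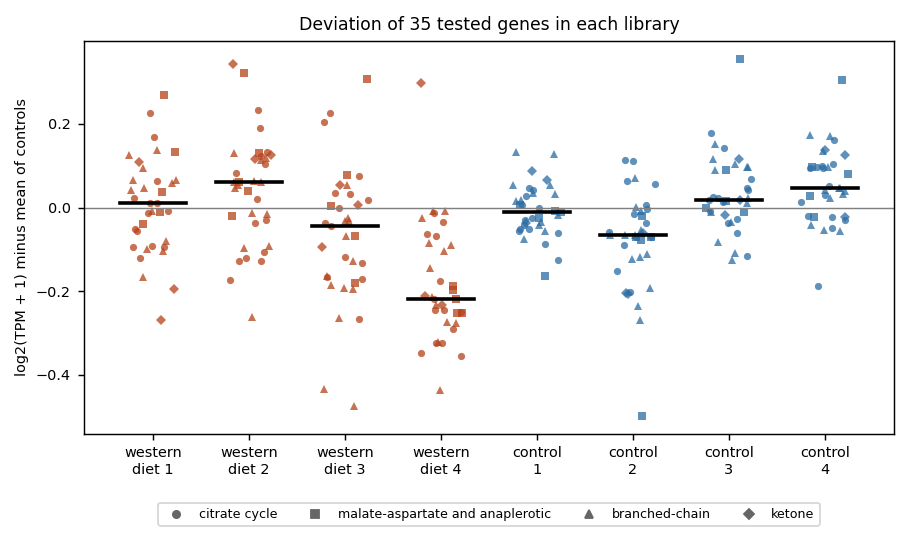
Each point is 1 of the 35 tested genes in 1 library (x axis), placed at its log2(TPM + 1) minus the mean of the 4 controls (y axis), with shapes for the branches and a black bar at the median. The points of western diet replicate 4 have a median of -0.22, below the medians of the other 7 libraries.

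Levels in the citrate cycle spanned a wide range in both groups. Idh2 and Mdh2 were the most abundant of the 36 genes. Idh2, the mitochondrial NADP-dependent isocitrate dehydrogenase, was at 1257, 1378, 1051 and 1034 TPM in western diet libraries, against 1307, 1234, 1166 and 1359.99 TPM in controls. Mdh2, the mitochondrial malate dehydrogenase that regenerates oxaloacetate, was at 1163, 1132, 1054 and 974 TPM in western diet libraries, against 1189, 1159, 1107 and 1166 TPM in controls. Both genes overlapped between the groups, with replicate 4 the lowest western diet library for each. Cs, the citrate synthase that opens the cycle, averaged 445 ± 45.8 TPM in western diet and 478 ± 25.6 TPM in control (SD over 4 libraries each), a log2 fold change of -0.11 with an SE of 0.09 and an adjusted p of 0.711 by limma. Idh1, the cytosolic NADP-dependent isocitrate dehydrogenase, was far less abundant than Idh2, at 21.7 to 24.1 TPM in western diet and 22.4 to 24.9 TPM in control.

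**Figure D3:**
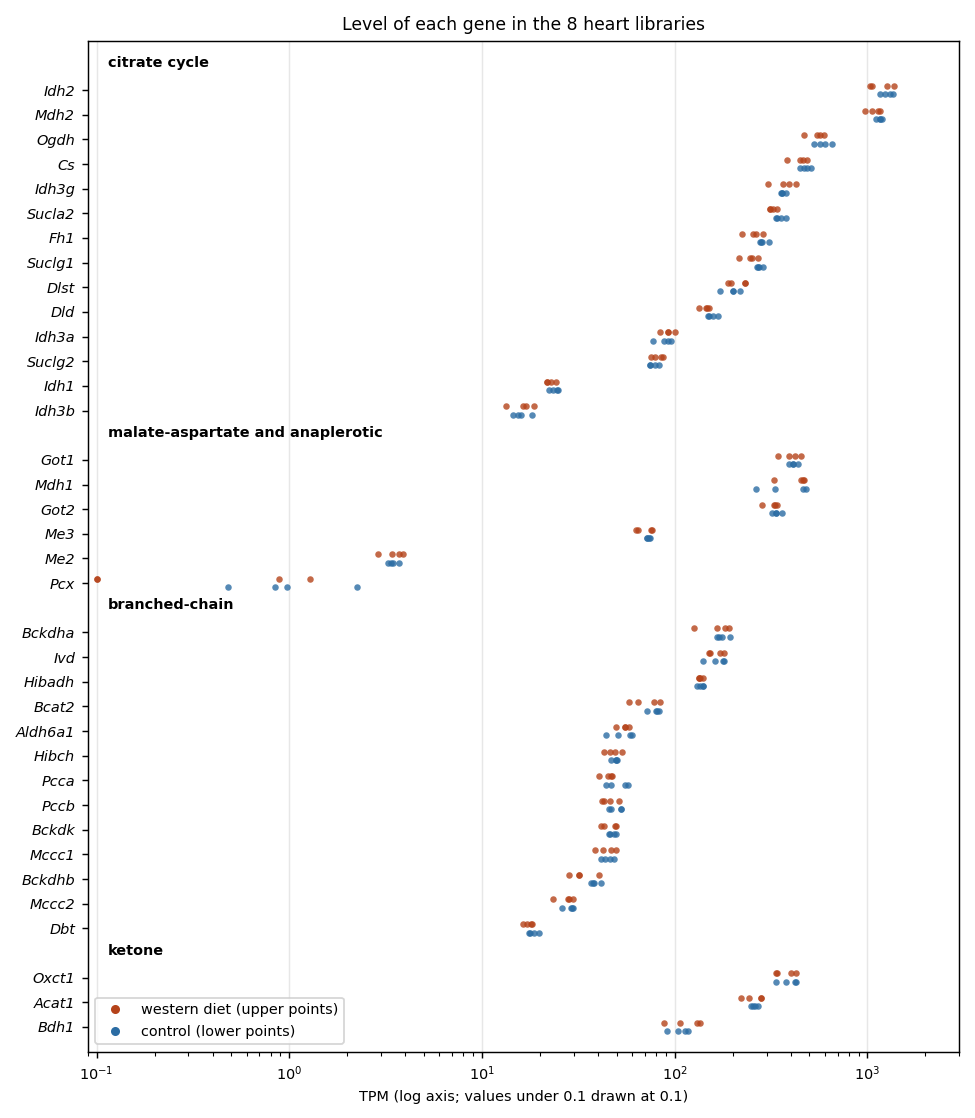
TPM of each of the 36 genes (x axis, log scale) in western diet libraries (upper points) and controls (lower points), ordered by mean level within each branch. The groups overlap for every gene, and Idh2 and Mdh2 lie at the upper end and Pcx at the lower, with its values under 0.1 TPM drawn at 0.1.

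The NAD-dependent isocitrate dehydrogenase is built from subunits encoded by Idh3a, which carries the catalytic site, and by Idh3b and Idh3g. Their transcripts were far from equal. Idh3g (ENSMUSG00000002010, X chromosome) was at 425, 390.3, 363 and 305 TPM in western diet libraries, against 356, 359, 361 and 376 TPM in controls. The controls were within a narrow band, and the western diet libraries lay on both sides of it, with those lacking Y-linked transcripts at 363 to 425 TPM. Idh3a was at 91.97, 100.5, 92.6 and 83.9 TPM in western diet libraries, against 88.3, 95.1, 92.2 and 77.1 TPM in controls. Idh3b (ENSMUSG00000027406, chromosome 2) was at 16.3, 16.998, 18.6 and 13.3 TPM in western diet libraries, against 14.6, 15.95, 18.2 and 15.4 TPM in controls. All 3 genes overlapped between the groups. Within a library Idh3g stood 19.5 to 26.1 times as high as Idh3b with western diet and 19.8 to 24.4 times in controls, per transcript length. The sequences of 250 bases before the transcript start are shown for Idh3g and Idh3b, because their levels are the farthest apart among subunits of a complex in the list, and for Bckdhb, which had the lowest log2 fold change. They are from RefSeq on GRCm38.p6, written 5′ to 3′ on the gene's strand, with capitals at the GC box GGGCGG and at CCAAT on either strand.
Idh3g, chrX:73786898-73787147, minus strand: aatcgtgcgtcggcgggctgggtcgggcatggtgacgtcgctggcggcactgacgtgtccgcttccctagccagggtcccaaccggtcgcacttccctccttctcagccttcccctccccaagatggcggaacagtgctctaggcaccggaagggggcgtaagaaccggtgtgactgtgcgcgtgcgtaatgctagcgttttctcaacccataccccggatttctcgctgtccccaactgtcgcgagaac
Idh3b, chr2:130284452-130284701, minus strand: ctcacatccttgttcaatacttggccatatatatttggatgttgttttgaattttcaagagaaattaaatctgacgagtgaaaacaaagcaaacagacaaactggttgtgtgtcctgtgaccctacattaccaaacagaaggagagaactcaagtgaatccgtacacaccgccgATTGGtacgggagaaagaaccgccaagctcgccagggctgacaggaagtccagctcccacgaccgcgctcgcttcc
Bckdhb, chr9:83924887-83925136, plus strand: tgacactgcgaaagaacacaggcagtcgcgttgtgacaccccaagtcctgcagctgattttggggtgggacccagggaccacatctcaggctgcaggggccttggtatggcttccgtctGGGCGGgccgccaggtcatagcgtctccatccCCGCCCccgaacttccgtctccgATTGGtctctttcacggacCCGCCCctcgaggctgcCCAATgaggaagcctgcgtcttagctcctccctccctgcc

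In these windows Idh3g held neither motif, Idh3b held 1 CCAAT and Bckdhb held 3 GC boxes and 2 CCAAT matches. The Idh3b window ends at a RefSeq start that lies 96 bases inside the gene as annotated by GENCODE. Its CCAAT match therefore falls within the annotated gene. GC content was 62.8% for Idh3g, 46.8% for Idh3b and 63.2% for Bckdhb. Of the 36 genes 32 had such a window. CCAAT was in 19 of them (59.4%), against 34.5% of the windows of 27025 genes, and GGGCGG in 16 (50%), against 32.9%. The E-box CACGTG, to which clock factors among others bind, was in 2 of 32 windows (6.25%), against 6.05% of all. The letters TCAAGGTCA, a site of oestrogen-related receptors, and the NRF1 site were in 0 of 32 windows, against 0.366% and 0.781% of all. For the 32 members the window nearest the annotated gene start was used. For the 27025 genes the first listed window was used, whether or not the gene was expressed in heart. The shares are therefore not strictly like for like. The motifs were searched on both strands, matches of different motifs may share bases, and a match is not evidence of binding. The 3 windows were chosen after their values and matches had been seen.

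Genes of the 2-oxoglutarate dehydrogenase complex, which turns 2-oxoglutarate into succinyl-CoA, did not pass the test. Ogdh, its decarboxylating subunit, was at 545 ± 54.6 TPM in western diet and 586 ± 54.5 TPM in control (SD, n = 4 per group). Dlst, its core acyltransferase, was at 212 ± 22.5 TPM in western diet and 198 ± 19.4 TPM in control. Dld, the dihydrolipoamide dehydrogenase that this complex shares with pyruvate and branched-chain dehydrogenases, was at 144 ± 7.25 TPM in western diet and 156 ± 8.48 TPM in control. The limma adjusted p was 0.731 for Ogdh, 0.766 for Dlst and 0.609 for Dld.

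Succinyl-CoA ligase makes ATP or GTP from succinyl-CoA, according to which β subunit, Sucla2 or Suclg2, joins the shared α subunit Suclg1. Suclg1 (chromosome 6, 73248382 to 73276911) was at 272, 251, 244 and 215 TPM in western diet libraries, against 274, 285, 269 and 269 TPM in controls. It had the lowest log2 fold change in the cycle (-0.16, SE 0.09, limma adjusted p = 0.496), and only western diet replicate 1 reached into the control range. Sucla2, the β subunit for ATP (chromosome 14, 73525319 to 73596142), was at 339, 323, 312 and 311 TPM in western diet libraries, against 341, 335, 355 and 377 TPM in controls. Suclg2, the β subunit for GTP (chromosome 6, 95473009 to 95718800), was at 87.2, 84.96, 79.3 and 75.6 TPM in western diet libraries, against 74.2, 74.4, 78.8 and 82.8 TPM in controls. Neither passed (limma adjusted p = 0.557 for Sucla2 and 0.772 for Suclg2), and both overlapped between the groups, with estimates of opposite sign. The ratio of Sucla2 to Suclg2 within a library did not overlap. It was 3.89, 3.81, 3.93 and 4.11 in western diet libraries, against 4.60, 4.50, 4.50 and 4.55 in controls, or 3.94 ± 0.13 and 4.54 ± 0.05 (SD, n = 4 per group). Of 13 ratios between partner genes this was the only one whose groups lay apart. Among all single genes tested the groups lay apart for 6.6%, so nothing is read from that count. The 13 pairs were listed after the values had been seen, so the ratio is given as a description with no test. A ratio within a library is not altered by scaling that library, and western diet replicate 4, at 4.11, was below all 4 controls here as well. Leaving out each library in turn, the difference was -0.66 to -0.56. Because the groups lay apart, leaving out a library could not change its sign. In the 5 libraries with Y-linked transcripts alone the difference was -0.43, which rests on western diet replicate 4 as the only western diet library.

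**Figure D4:**
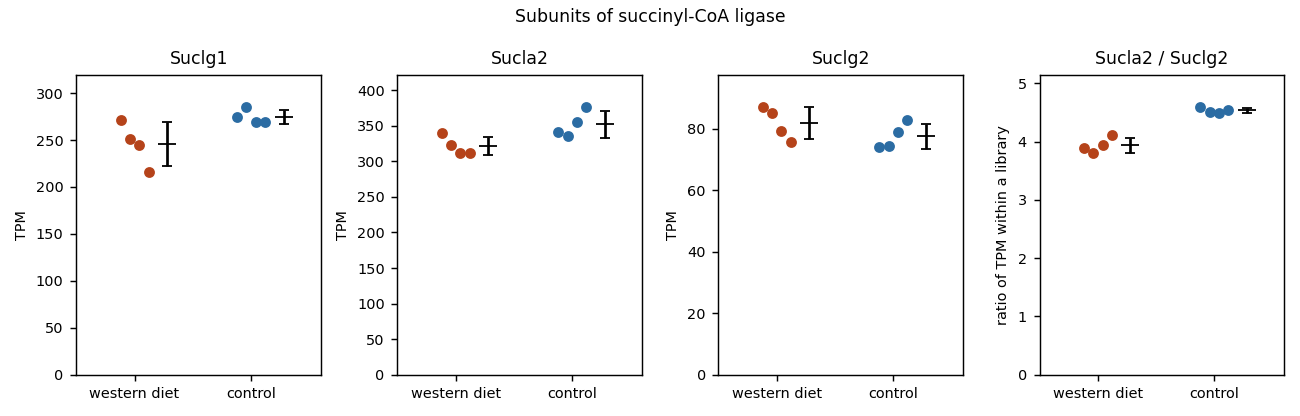
TPM of Suclg1, Sucla2 and Suclg2 and the ratio of Sucla2 to Suclg2 within a library (y axes) in western diet and control libraries, with the mean and SD as a black bar (n = 4 per group). The genes overlap between the groups, while the ratio is 3.81 to 4.11 with western diet and 4.50 to 4.60 in controls.

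Fh1, the fumarase that hydrates fumarate to malate, was at 289, 254, 264 and 224 TPM in western diet libraries, against 275, 310.1, 279 and 282 TPM in controls (log2 fold change -0.16, SE 0.09, limma adjusted p = 0.549). Western diet replicate 1 lay inside the control range and the other 3 below it. Of the 8 other tested genes of the cycle, listed beside the 36, none rose and none fell. Among them the 4 subunits of succinate dehydrogenase, which also belongs to the respiratory chain, had adjusted p of 0.729 to 0.971 by limma. Summed over the 14 members, the cycle took 5014.7 ± 429.8 TPM in western diet and 5321.8 ± 170.2 TPM in control.

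In the malate-aspartate shuttle, Mdh1 varied more between libraries than any other tested member in the controls. Mdh1, the cytosolic malate dehydrogenase (chromosome 11, 21556787 to 21572367), was at 451, 467, 463 and 328 TPM in western diet libraries, against 333, 264, 478 and 462 TPM in controls. Low values came from western diet replicate 4 and control replicates 1 and 2, so the spread did not follow the groups (log2 fold change 0.18, SE 0.19, limma adjusted p = 0.766). Without control replicate 2 the estimate was 0.01. Got1 and Got2, the cytosolic and mitochondrial aspartate aminotransferases, were at 403 ± 45.3 and 321 ± 25.3 TPM in western diet, against 412 ± 17.97 and 338 ± 17.01 TPM in control. Their ratio was 1.21 to 1.23 in the 4 controls and ranged more widely, from 1.16 to 1.37, with western diet. The aspartate-glutamate carriers Slc25a12 (91.7 ± 9.18 TPM in western diet, 93.5 ± 9.34 TPM in control) and Slc25a13 (36.9 ± 1.67 TPM in western diet, 38.6 ± 2.65 TPM in control), outside the 36, did not pass.

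Genes that refill the cycle or draw malate from it lay lower. Pcx, the pyruvate carboxylase, was at 1.28, 3.40e-06, 0.887 and 0.000254 TPM in western diet libraries, against 0.848, 2.25, 0.480 and 0.969 TPM in controls. It is the member that did not pass the filter, and no test is given. Me2 and Me3 are mitochondrial malic enzymes, which turn malate into pyruvate. Me3 was at 69.5 ± 7.06 TPM in western diet and 73.04 ± 1.33 TPM in control, and Me2 at 3.47 ± 0.432 TPM in western diet and 3.45 ± 0.208 TPM in control. Me1, their cytosolic relative and a source of NADPH, is outside the 36 and was the gene nearest the threshold in this branch. It was at 70.6, 76.7, 70.2 and 63.1 TPM in western diet libraries, against 50.1, 45.9, 56.2 and 54.02 TPM in controls (log2 fold change 0.44, SE 0.09, limma adjusted p = 0.0823). All 4 western diet libraries lay above all 4 controls. Me1 did not pass as deposited. It passed after median-of-ratios scaling (adjusted p = 0.0290, limma) and after quantile normalisation (adjusted p = 0.0372). It also passed with library weights (adjusted p = 0.0297) and without western diet replicate 4 (adjusted p = 0.0452). At an adjusted p of 0.1 in place of 0.05 it passed as deposited. Under every other alternative setting Me1 did not pass at 0.05. The limma adjusted p was 0.0790 without mitochondrially encoded genes, the lowest of these, and 0.628 without the 3 libraries with atrial transcripts, the highest. With a term for Y-linked transcripts the log2 fold change was 0.29 (limma adjusted p = 0.608). Of the 13 other genes tested in this branch, 0 passed as deposited.

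Branched-chain amino acid breakdown begins with Bcat2, the mitochondrial aminotransferase, followed by the branched-chain dehydrogenase. Its decarboxylating component is encoded by Bckdha and Bckdhb, its acyltransferase core by Dbt, and it is switched off by the kinase Bckdk and on by the phosphatase Ppm1k. Bckdhb (ENSMUSG00000032263, chromosome 9, 83925145 to 84124240) had the lowest log2 fold change of the 36 genes and the smallest p. It was at 40.2, 31.9, 31.8 and 28.1 TPM in western diet libraries, against 37.5, 38.2, 41.2 and 36.9 TPM in controls (log2 fold change -0.22, SE 0.11, 95% interval -0.46 to 0.01, limma adjusted p = 0.447). Western diet replicate 1 lay within the control range and the other 3 below it. Bckdha was at 192, 183, 127 and 166 TPM in western diet libraries, against 193, 176, 166 and 169.6 TPM in controls, and did not pass. Dbt, at 16.3, 17.2, 17.98 and 18.3 TPM in western diet libraries and 18.6, 17.6, 19.7 and 17.8 TPM in controls, was the scarcest subunit of the complex. Bckdha stood 7.04 to 11.8 times as high as Dbt within a western diet library and 8.46 to 10.4 times within a control library. Neither the kinase nor the phosphatase passed the test, with Bckdk at 45.8 ± 4.21 TPM in western diet and 47.5 ± 1.74 TPM in control. Ppm1k, outside the 36, was at 17.02 ± 1.66 TPM in western diet and 20.6 ± 3.19 TPM in control (log2 fold change -0.25, SE 0.12, limma adjusted p = 0.445).

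Western diet replicates differed among themselves in the upper steps of this pathway, and not in the same way for every gene. Bcat2 was at 84.2, 77.9, 58.02 and 64.9 TPM in western diet libraries, against 80.5, 82.8, 72.1 and 80.1 TPM in controls. Replicates 3 and 4 were therefore below all controls and replicates 1 and 2 were not. Bckdha and Bckdk had the same split. For Bckdhb replicates 2, 3 and 4 were below all controls, and for Dbt replicates 1 and 2 were. Klf15, a transcription factor known to activate branched-chain catabolic genes in mouse heart and muscle, was at 5.76, 6.67, 2.31 and 1.72 TPM in western diet libraries, against 2.92, 2.44, 3.44 and 3.21 TPM in controls. For Klf15, as for Bcat2, replicates 1 and 2 were the high ones and replicates 3 and 4 lay below all controls. A link between Klf15 and these genes was not tested. The coefficient of variation of Klf15 was 59.9% with western diet and 14.3% in control. Its fold change was not resolved (log2 fold change 0.22, SE 0.29, limma adjusted p = 0.819).

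No gene below the dehydrogenase step passed the test. On the leucine branch, Ivd, the isovaleryl-CoA dehydrogenase, was at 164 ± 14.4 TPM in western diet and 165 ± 18.98 TPM in control. Mccc1 and Mccc2, the subunits of the biotin-dependent methylcrotonyl-CoA carboxylase, were at 44.3 ± 4.79 and 27.3 ± 2.74 TPM in western diet, against 44.9 ± 3.02 and 28.4 ± 1.66 TPM in control. On the valine branch Hibch, the 3-hydroxyisobutyryl-CoA hydrolase, was at 47.8 ± 4.27 TPM in western diet and 49.04 ± 1.58 TPM in control. Hibadh, the 3-hydroxyisobutyrate dehydrogenase, had the lowest coefficient of variation with western diet among the 36, at 133 to 140.4 TPM in western diet and 130.4 to 140.5 TPM in control (log2 fold change -0.01, 95% interval -0.16 to 0.15). Aldh6a1, the methylmalonate semialdehyde dehydrogenase, was at 54.4 ± 3.36 TPM in western diet and 53.3 ± 7.53 TPM in control. Pcca and Pccb, the propionyl-CoA carboxylase subunits that lead valine and isoleucine carbon towards succinyl-CoA, had similar levels in every library, with a ratio of 0.93 to 1.04 with western diet and 0.88 to 1.18 in control. Pcca was at 44.9 ± 3.25 TPM in western diet and 50.8 ± 6.34 TPM in control (log2 fold change -0.17, SE 0.10, limma adjusted p = 0.562), and Pccb at 45.6 ± 4.097 TPM in western diet and 49.6 ± 3.93 TPM in control. In the whole branch 12 of 13 estimates were below 0, with a median of -0.06, and 0 passed.

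Of the 18 other genes of branched-chain handling that were tested, none passed over all genes. An unadjusted p under 0.05 was reached by 2 (11.1%), near the 11.7% of all genes, so nothing is read from their number. Both encode amino acid transporters of the cell surface. Slc43a2 was at 4.17, 5.73, 4.97 and 5.04 TPM in western diet libraries, against 3.72, 2.797, 3.73 and 3.89 TPM in controls (log2 fold change 0.40, SE 0.12, limma adjusted p = 0.223). Slc7a5, the light chain of the LAT1 carrier, was at 2.14, 2.47, 1.74 and 1.81 TPM in western diet libraries, against 1.47, 1.17, 1.697 and 1.199 TPM in controls (log2 fold change 0.35, SE 0.12, limma adjusted p = 0.281). For both, all western diet libraries lay above all controls.

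None of the ketone oxidation genes passed the test, and Bdh1 varied between libraries. Bdh1, the 3-hydroxybutyrate dehydrogenase, was at 87.7, 135, 106 and 130.4 TPM in western diet libraries, against 113, 91.6, 104 and 117 TPM in controls (log2 fold change 0.09, SE 0.14, 95% interval -0.21 to 0.40, limma adjusted p = 0.842). Western diet libraries lay both below and above the control range. Oxct1, which transfers CoA from succinyl-CoA to acetoacetate and is the step that liver lacks, was at 339, 424, 403 and 335 TPM in western diet libraries, against 379, 337, 421 and 424 TPM in controls (log2 fold change -0.06, SE 0.11, limma adjusted p = 0.887). Acat1, the mitochondrial thiolase that also ends isoleucine breakdown, was at 256 ± 29.4 TPM in western diet and 259 ± 9.86 TPM in control. Summed over the 3 genes, 746 ± 68.03 TPM in western diet stood beside 756 ± 54.3 TPM in control.

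Slc16a1, the monocarboxylate carrier MCT1 that takes up ketone bodies and lactate, was at 53.6 ± 2.37 TPM in western diet and 49.8 ± 5.44 TPM in control (limma adjusted p = 0.692). Of the 9 other genes tested in this branch, 0 passed.

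**Figure D5:**
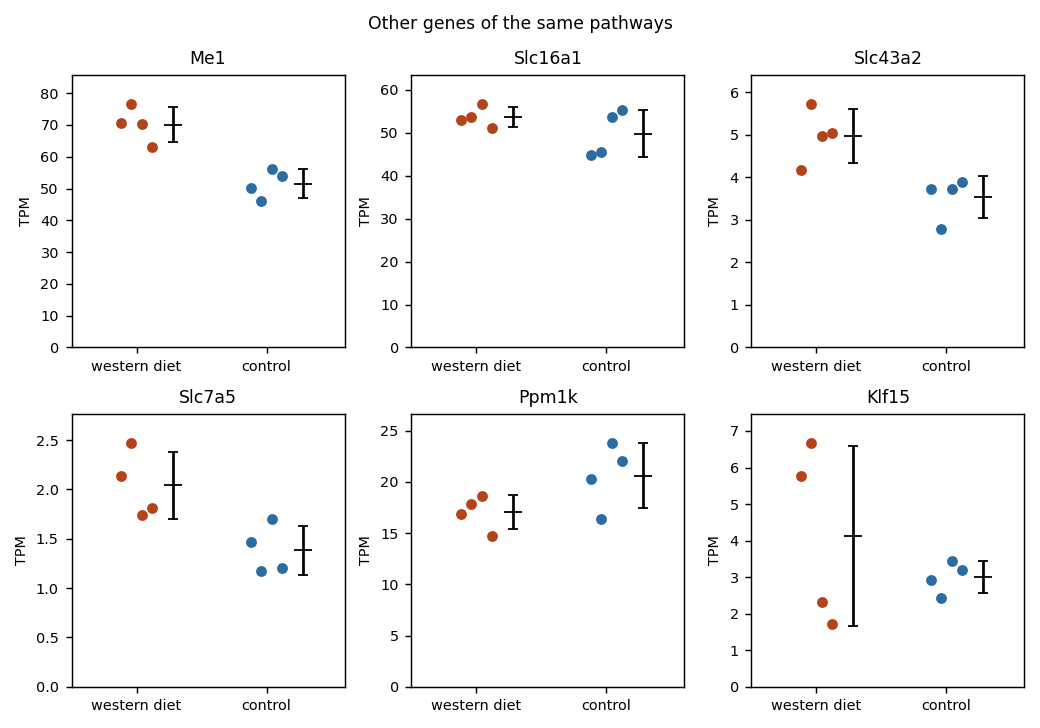
TPM (y axes, from 0) of 6 genes outside the 36 in western diet and control libraries, with mean and SD as a black bar (n = 4 per group). Me1, Slc43a2 and Slc7a5 have all western diet points above all controls, and Klf15 is spread widely within western diet.

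The median coefficient of variation of TPM of the 35 tested genes was 10.05% in western diet and 5.53% in control, against 14.2% and 11.9% for all genes tested. These sets were not matched for level. Of the 36 genes, 19 averaged at least 100 TPM and 2 under 10 TPM, while the filter for all genes was 1 TPM in 4 libraries. The median coefficient was compared between the groups as well. The coefficient of variation was higher with western diet in 26 of the 35 genes, and in 60.8% of all genes. The 36 genes together took 0.734% to 0.9001% of TPM in western diet libraries and 0.821% to 0.913% in controls, with western diet replicate 4 the lowest.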

How the data were processed

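RNA was extracted from heart with a Qiagen kit and polyadenylated RNA was made into stranded Illumina TruSeq libraries, per the labels' protocols. The authors deposited gene-level TPM for 8 libraries; kallisto, DESeq2 and GRCm38 are named without versions or roles in the submitters' processing notes. How transcript values became gene values, and with which annotation, is not stated in the labels. Columns summed to 941318 to 953448, and because TPM is relative and keeps no depth, no counting error or detection limit is given.

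Ensembl identifiers were named with GENCODE vM21 on GRCm38, which matched 29732 of 30153. The filter (1 TPM or more in 4 or more libraries) left 10969 genes. Their log2(TPM + 1) values entered limma (version 3.58.1, R version 4.3.3) with group as the only term, an intensity trend, two-sided tests and Benjamini-Hochberg adjustment over all of them. Fold changes on this scale understate the change of low genes. The alternatives were 20 other settings of pseudocount, filter, scaling, weights, terms and libraries, and an adjusted p of 0.1. Groups came from the labels, and replicates are numbered in accession order and pair nothing. Every member was named. Of the other pathway genes, those with an unadjusted p under 0.05 (at most 4 per list) and a few set genes were named; some of the genes this rule picks are not reported here. Members and lists were chosen with earlier results of these data known. On simulated data with 200 of 10969 genes changed, 92.1% of 2-fold and 99.2% of 4-fold changes were recovered and 4.97% of calls were false. Changes under 2-fold, the size of the estimates of the tested members, were not simulated, so their recovery is unknown. Copies with at least 90% identity over at least 50% of either transcript (BLAST 2.17.0) were in the table for 5 members, Cs, Got2, Hibadh, Hibch and Suclg2, at no more than 0.519 TPM. Python 3.11.15, pandas 2.3.3 and matplotlib 3.10.9 were used for tables and figures.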

Additional observations from a re-analysis of the deposited data

Results flagged for a closer look

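In 5 of 128 groups of 4 libraries checked, 1 library stood apart from the other 3 by the 95% critical value of Dixon's test, in which the gap to the nearest neighbour is divided by the whole range. Chance alone gives about 1 in 20.

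Mdh1 was flagged with a gap ratio of 0.880 in western diet, where replicate 4 was at 328 TPM and the others at 451 to 467 TPM. The summed malate-aspartate and anaplerotic genes, which hold Mdh1, had a gap ratio of 0.837 in western diet, with replicate 4 at 1023 TPM and the others at 1263 to 1310 TPM. Slc25a13, the aspartate-glutamate carrier, had a gap ratio of 0.877 in western diet, with replicate 4 at 34.5 TPM and the others at 37.5 to 37.9 TPM. The ratio of Bckdk to Ppm1k in western diet had a gap ratio of 0.8292, with replicate 3 at 2.22 and the others at 2.79 to 2.91. Slc43a2 had a gap ratio of 0.841 in control, with replicate 2 at 2.797 TPM and the others at 3.72 to 3.89 TPM.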

How the results depend on the processing

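The number of the 36 genes past an adjusted p of 0.05 was 0 as deposited, under all 20 alternatives and at an adjusted p of 0.1 (limma). Their smallest adjusted p was 0.122 to 0.999 over the alternatives and 0.447 as deposited. The number at an unadjusted p under 0.05, 0 as deposited, was 11 after median-of-ratios scaling, 7 after quantile normalisation, 3 without mitochondrially encoded genes (8.57%, below the 13.2% of all genes), 7 with a term for Y-linked transcripts and 13 in the 5 libraries with such transcripts alone. It was 0 to 4 when each library was left out in turn, and the cause was not tested. With a term for Y-linked transcripts and in the 5 libraries with such transcripts alone, the contrast rests on western diet replicate 4. In both, the median log2 fold change was -0.24 for the citrate cycle (-0.10 as deposited) and -0.22 for the malate-aspartate and anaplerotic genes (-0.04 as deposited). It was -0.21 for the ketone genes (-0.03 as deposited) and -0.14 for the branched-chain genes (-0.06 as deposited). The median of all genes moved as well, to -0.07, against 0.06 as deposited. Relative to it the medians were -0.18 for the citrate cycle (-0.16 as deposited), -0.15 for malate-aspartate and anaplerotic (-0.10), -0.14 for ketone (-0.09) and -0.07 for branched-chain (-0.12). The estimate changed sign under at least 1 alternative for 16 of the 35 tested genes. None of these was called under any alternative, so no direction is read from them. Without western diet replicate 4, 21 of 35 estimates were below 0, against 26 with it, and the share of all genes below 0 was 24.3%, against 33.6%. The malate-aspartate and ketone medians were then 0.03 each, and -0.07 and -0.08 relative to all genes. The median of all genes was 0.06 as deposited and -0.01 after median-of-ratios scaling or quantile normalisation. No paired analysis was possible because the labels carry no replicate numbers that could pair libraries. TPM keeps no depth, so counting error is unknown, and 4 libraries a group limit the precision.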

Other observations

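Slc3a2, the heavy chain that partners Slc7a5, was singled out after its values were seen. It was at 15.3, 16.4, 8.23 and 7.48 TPM in western diet libraries, against 9.09, 7.46, 8.92 and 8.297 TPM in controls (log2 fold change 0.37, SE 0.22, limma adjusted p = 0.549). Western diet replicates 1 and 2 were high and replicates 3 and 4 were not, the same split as for Klf15.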
